A study of Mus musculus with 6 samples.

Results

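The potassium channel genes of the mouse pituitary were taken as all gene names formed by Kcn, lower-case letters and a final number, and the level of a gene was the FPKM (fragments per kilobase of transcript, scaled to mapped fragments) summed over its annotated transcripts. The pattern found 92 genes among 50348 gene names, and 70 of the 92 are listed in all 6 libraries. The study profiled RNA of sorted pituitary cells and of whole glands in mice of 2 ages. Sorted cells came from crosses of a Cre driver with the reporter ROSAYFP, whose fluorescent cells were collected by FACS after collagenase treatment of pooled glands: Tshbcre from 42 adult glands, Ghcre from 12, Lhbcre from 7, and Tshbcre also from 5 glands of postnatal day 7 (P7). Whole-gland RNA came from 1 nontransgenic adult gland and from 8 nontransgenic P7 glands, and adults were 7 weeks old. The drivers carry the names of hormone genes (Tshb, the thyrotropin beta subunit; Gh, growth hormone; Lhb, the luteinizing hormone beta subunit), so the reporter marks cells in which Cre was active at any earlier time. Sex was not given in the sources used here.

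Potassium channels let potassium leave the cell, which holds the membrane negative and ends each action potential. Hormone cells of the anterior pituitary are electrically excitable, and the calcium that enters during their action potentials drives hormone release. Two-pore channels give a steady leak, voltage-gated (Kv) channels open on depolarization, and calcium-activated channels follow calcium entry. Some inward rectifiers respond to G proteins or to ATP.

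Groups consist of a single library (n = 1 each), without replicates or tests, and a difference between libraries cannot be told apart from a difference between animals or preparations. Levels are FPKM divided by 1 factor per library (scaled FPKM). Differences are on log2(scaled FPKM + 1), which understates the fold of low genes. Genes were counted as apart at 4-fold or more where the higher level was at least 1 scaled FPKM. The bounds printed are those the authors deposited, summed over transcripts, and cover reads within a library only. A gene listed at 0 is not taken as absent, since reads of a locus can sit in an assembled transcript without a name. Depth relative to the adult whole gland ranged from 1 to 2.73 (Ghcre). The Ghcre table ends within chromosome 5 and lists 70 of the members, and the other 22 were not measured there. Tshb stood at 1075 and 3001 scaled FPKM in the adult and P7 Tshbcre libraries, 33.1 and 61.0 in the whole glands, 9.05 in Lhbcre and 3.87 in Ghcre. Gh is not listed in Ghcre, Lhbcre or the adult whole gland, and Lhb and Ghrhr are not listed in Ghcre. The Ghcre driver could therefore not be checked by Gh. Of the other somatotrope markers, Pappa2 and Neurod4 were highest in Ghcre, at 32.8 and 15.8, against 18.7 and 5.07 in the adult whole gland. Neurod4 stood at 13.3 in Lhbcre, and Rbp4 was highest in P7 Tshbcre, at 22.5, against 6.11 in Ghcre. Lhb stood at 2904 in adult Tshbcre, 2198 in Lhbcre and 637 in the adult whole gland, and Fshb at 928, 216 and 180. At P7, Lhb stood at 1278 in Tshbcre and 312 in the whole gland. Gh stood at 14806.5 in adult Tshbcre, 3870 in P7 Tshbcre and 6031 in the P7 whole gland. Prl stood at 6546 and 17579 in adult Tshbcre and whole gland and at 21.7 and 82.5 in P7 Tshbcre and whole gland. Both Tshbcre libraries thus held RNA of other hormone genes, and its source was not tested. Xist, transcribed in female cells, stood at 29.4, 62.6 and 17.0 in Lhbcre, P7 Tshbcre and the P7 whole gland and at 0.11 or less in adult Tshbcre and the adult whole gland, while the Y-linked Ddx3y stood at 0.01 in Lhbcre and at 2.09 to 3.20 in the other 4 libraries that list it.

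Markers of other cells moved with sorting. The summed level of the endothelial markers listed in all 6 libraries (3 of 8) was 26.4 and 24.5 in the adult and P7 whole glands and 1.14 to 7.97 in the sorted libraries. For mesenchymal and pericyte markers (6 of 8) it was 59.1 and 194 against 4.54 to 13.1, for immune markers (5 of 7) 57.2 and 22.9 against 1.90 to 34.2, and for corticotrope markers (5 of 5) 1569 and 1446 against 32.3 to 323. Erythroid markers (2 of 5) stood at 685 and 961 against 41.3 to 96.3. The sorted libraries were not alike: the immune value of 34.2 is that of adult Tshbcre and lies above the P7 whole gland. Stem and folliculostellate markers (4 of 6) stood at 12.1 and 21.4 in the adult and P7 whole glands and at 8.23 in adult Tshbcre. They stood at 0.50 in Ghcre, 0.90 in Lhbcre and 1.52 in P7 Tshbcre. Of the endothelial markers, Kdr and Tek were listed at 0 in P7 Tshbcre, and of the mesenchymal list Lum was at 0 in Lhbcre and Col3a1 in Ghcre. The erythroid marker Alas2 was at 0 in adult Tshbcre and Lhbcre. In bulk RNA, fewer cells of a type and less RNA per cell cannot be told apart. The part of these cells in the channel differences was not tested.

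Most channel genes were low. Of the 92 members, 49 reached 1 scaled FPKM in at least 1 library, 20 reached 5 and 11 reached 10, while 43 stayed under 1 in every library that lists them. Kcnj13, Kcnmb3 and Kcnq1 were listed at 0 throughout. Members at 1 or more numbered 29 in adult Tshbcre, 22 of the 70 listed in Ghcre, 38 in Lhbcre, 35 in the adult whole gland, 36 in P7 Tshbcre and 30 in the P7 whole gland. The 20 members that reached 5 comprised 9 of 30 Kv pore genes, 1 of 11 Kv auxiliary genes, 2 of 15 inward rectifiers, 4 of 14 two-pore genes, 4 of 12 calcium- and sodium-activated genes and none of 10 silent Kv genes.

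**Figure D1:**
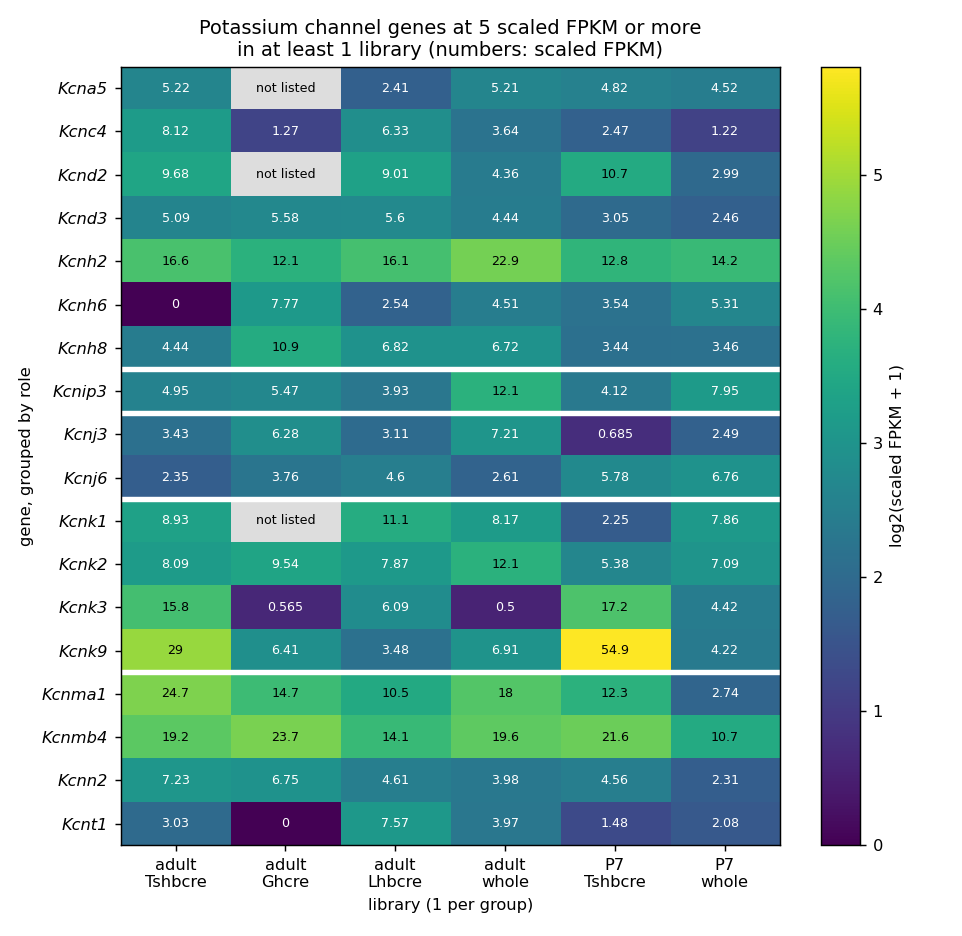
Level of 18 of the 20 potassium channel genes at 5 scaled FPKM or more in at least 1 library. Rows are genes grouped by role, columns are the 6 libraries, colour is log2(scaled FPKM + 1) and the numbers are scaled FPKM; grey cells are genes that the Ghcre table does not list. Kcnk9 in the P7 Tshbcre library is the highest cell, at 54.9, and Kcnh2, Kcnmb4 and Kcnma1 are high in most columns.

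The two-pore genes Kcnk9 and Kcnk3 stood apart in the Tshbcre libraries. Kcnk9 and Kcnk3 encode the acid-sensitive TASK leak channels, whose subunits can pair with each other and which are closed by Gq-coupled hormone receptors. Kcnk9 (mm39, chromosome 15, 72373722 to 72422415) stood at 29.0 scaled FPKM in adult Tshbcre (deposited bounds 27.6 and 30.4), 6.41 in Ghcre, 3.48 in Lhbcre, 6.91 in the adult whole gland (6.52 and 7.29), 54.9 in P7 Tshbcre (52.4 and 57.3) and 4.22 in the P7 whole gland (3.99 and 4.46). Both Tshbcre libraries lay far above the other 4, and the P7 library above the adult one. Kcnk9 was 10.7-fold higher in P7 Tshbcre than in the P7 whole gland and 3.79-fold higher in adult Tshbcre than in the adult whole gland, and P7 Tshbcre was 1.87-fold above adult Tshbcre. Of its 3 annotated transcripts, a single one of 7762 nt held 89.1% to 100% of the level in each library.

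Kcnk3 (chromosome 5, 30745514 to 30782614, overlapped by Gm9899) has 1 annotated transcript, of 3810 nt. Its level was 15.8 in adult Tshbcre (14.9 and 16.6), 0.56 in Ghcre, 6.09 in Lhbcre (5.73 and 6.44), 0.50 in the adult whole gland (0.36 and 0.64), 17.2 in P7 Tshbcre (16.3 and 18.1) and 4.42 in the P7 whole gland (4.12 and 4.71). The Tshbcre libraries were highest and close to each other, Lhbcre was intermediate, and the adult whole gland and Ghcre were lowest. Kcnk3 was 11.2-fold higher in adult Tshbcre and 4.72-fold higher in Lhbcre than in the adult whole gland. At P7 the Tshbcre library was 3.36-fold above the whole gland. The low value of the adult whole gland depends on how reads were assigned: with assembled transcripts of the same Cufflinks gene added it stood at 2.90, the folds became 4.29 for adult Tshbcre and 1.82 for Lhbcre, and Ghcre lay 2.50-fold lower. With all unnamed transcripts inside the span added, the adult Tshbcre log2 difference was 1.21, under 4-fold.

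Together Kcnk3 and Kcnk9 made up 82.0% of the summed level of the 12 two-pore genes listed in all 6 libraries in adult Tshbcre and 91.8% in P7 Tshbcre. Their share was 48.3% in Lhbcre, 31.9% in Ghcre and 29.6% and 50.2% in the adult and P7 whole glands. The summed level of these 12 genes was 54.6 and 78.5 scaled FPKM in the Tshbcre libraries and 17.2 to 25.0 in the other 4.

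**Figure D2:**
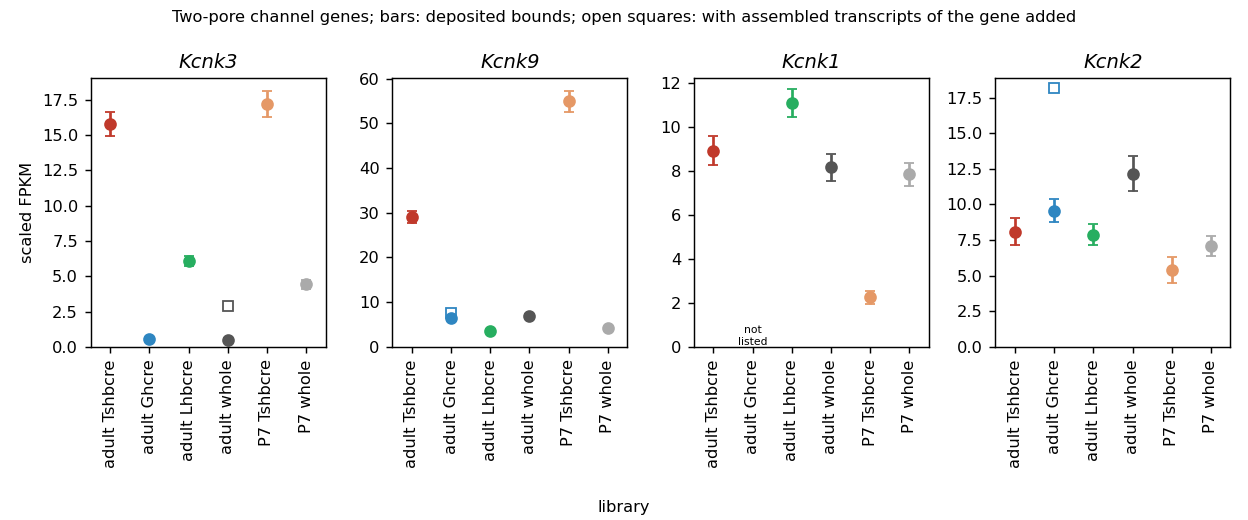
Scaled FPKM of Kcnk3, Kcnk9, Kcnk1 and Kcnk2 in the 6 libraries, with the deposited bounds as bars and open squares for the level with assembled transcripts of the same Cufflinks gene added. Kcnk9 stands at 29.0 and 54.9 in the Tshbcre libraries and at 6.91 or less in the others, while Kcnk2 has no such pattern.

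The other two-pore genes did not follow this pattern. Kcnk1 (chromosome 8, 126718692 to 126757424), which encodes a weakly conducting leak channel, stood at 8.93 in adult Tshbcre, 11.1 in Lhbcre, 8.17 in the adult whole gland, 2.25 in P7 Tshbcre (1.96 and 2.54) and 7.86 in the P7 whole gland, and is not listed in Ghcre. The P7 Tshbcre library was the low one, 3.06-fold below adult Tshbcre and 2.73-fold below the P7 whole gland. Kcnk2 (chromosome 1, 188940127 to 189134979), a channel opened by stretch and fatty acids, stood at 8.09, 9.54, 7.87 and 12.1 in adult Tshbcre, Ghcre, Lhbcre and whole gland and at 5.38 and 7.09 in P7 Tshbcre and whole gland. No library was 2-fold from its age-matched whole gland for Kcnk2. Its level in Ghcre was 18.2 with assembled transcripts added, 1.46-fold above the adult whole gland rather than below it. Kcnk10, its close relative, stood at 0.23, 2.83, 0.59, 2.97, 0.20 and 0.44 in the same order, so Ghcre and the adult whole gland were the higher libraries. Kcnk6 and Kcnk12 peaked at 1.53 and 1.36, and the other 7 two-pore genes stayed under 1: Kcnk4, Kcnk5, Kcnk7, Kcnk13, Kcnk15, Kcnk16 and Kcnk18.

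Calcium-activated channel genes included some of the most abundant members of every library. Kcnma1 encodes the pore of the large-conductance BK channel, which opens on calcium and depolarization, and Kcnmb4 an auxiliary subunit of it. Both stood at 10 scaled FPKM or more in each adult library. Their promoters, with that of the transient Kv gene Kcnd2, are shown because Kcnma1 and Kcnmb4 were the 2 most abundant genes of their group in every library and Kcnd2 was higher in the sorted than in the whole-gland libraries. They come from the RefSeq promoter table. Each is the 250 bases before the annotated start on GRCm38.p6, 5′ to 3′ on the strand of the gene, with the GC box (GGGCGG, or CCGCCC on the other strand) in capitals: Kcnma1 is chr14:24004206-24004455 (minus strand), Kcnmb4 is chr10:116473524-116473773 (minus strand) and Kcnd2 is chr6:21215096-21215345 (plus strand).
Kcnma1: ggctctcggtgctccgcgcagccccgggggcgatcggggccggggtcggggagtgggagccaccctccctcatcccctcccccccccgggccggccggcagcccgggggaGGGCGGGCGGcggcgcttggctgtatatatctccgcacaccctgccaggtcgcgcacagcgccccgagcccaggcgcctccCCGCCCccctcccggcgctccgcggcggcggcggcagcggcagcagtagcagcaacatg
Kcnmb4: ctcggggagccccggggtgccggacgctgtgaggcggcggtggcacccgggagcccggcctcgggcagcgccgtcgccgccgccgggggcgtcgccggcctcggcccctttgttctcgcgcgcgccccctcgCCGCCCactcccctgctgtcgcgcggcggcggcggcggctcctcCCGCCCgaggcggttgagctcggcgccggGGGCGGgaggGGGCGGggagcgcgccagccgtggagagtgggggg
Kcnd2: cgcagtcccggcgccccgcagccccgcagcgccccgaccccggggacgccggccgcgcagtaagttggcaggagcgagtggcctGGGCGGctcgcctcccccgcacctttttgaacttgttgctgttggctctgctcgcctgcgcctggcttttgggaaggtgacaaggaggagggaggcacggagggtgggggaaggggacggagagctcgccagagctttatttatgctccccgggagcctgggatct
The 3 sequences hold 79.2%, 83.6% and 68.8% G and C, against a median of 52.4% over all 32851 promoters of the table. They hold 3, 4 and 1 GC boxes, overlapping ones counted separately. Promoter entries matched 67 of the 92 members, and these members have 92 promoters. The GC box was found in 44.6% of the 92 and in 32.7% of all promoters. The letters TATAAA, bound by the general transcription factor TBP, were in 3.26% against 12.4%. The letters AGATAA, a site for GATA factors, were in 3.26% against 9.99%. TAATCC, a PITX motif, was in 1.09% against 6.25%, and TGACGTCA, the cAMP response element, in none of 92 against 1.55%. All were searched on both strands, and none of these 5 strings contains another. A match or its lack describes these letters in this window only. The G and C content of the 92 was not computed, so these shares are not adjusted for base composition.

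Kcnma1 (chromosome 14, 23342356 to 24055173) stood at 24.7 in adult Tshbcre (23.1 and 26.6), 14.7 in Ghcre, 10.5 in Lhbcre, 18.0 in the adult whole gland (16.9 and 19.3), 12.3 in P7 Tshbcre (11.2 and 13.6) and 2.74 in the P7 whole gland (2.53 and 3.11). The P7 whole gland was lowest, 5.07-fold below the adult whole gland and 3.56-fold below P7 Tshbcre. This gene has 48 annotated transcripts, of which 1 to 5 were above 0 in a library, and the P7 whole gland had 1. With assembled transcripts of the same Cufflinks gene added, the P7 whole gland stood at 9.96 and the other 5 libraries at 14.4 to 24.7, and neither fold reached 2: they were 1.73 and 1.40. Kcnmb4 (chromosome 10, 116253766 to 116309782), whose span overlaps Kcnmb4os1 and Kcnmb4os2, stood at 19.2, 23.7, 14.1 and 19.6 in adult Tshbcre, Ghcre, Lhbcre and whole gland and at 21.6 and 10.7 in P7 Tshbcre and whole gland. A transcript of 1005 nt held 88.3% to 95.1% of it. The P7 whole gland was again lowest, 1.77-fold below the adult one.

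**Figure D3:**
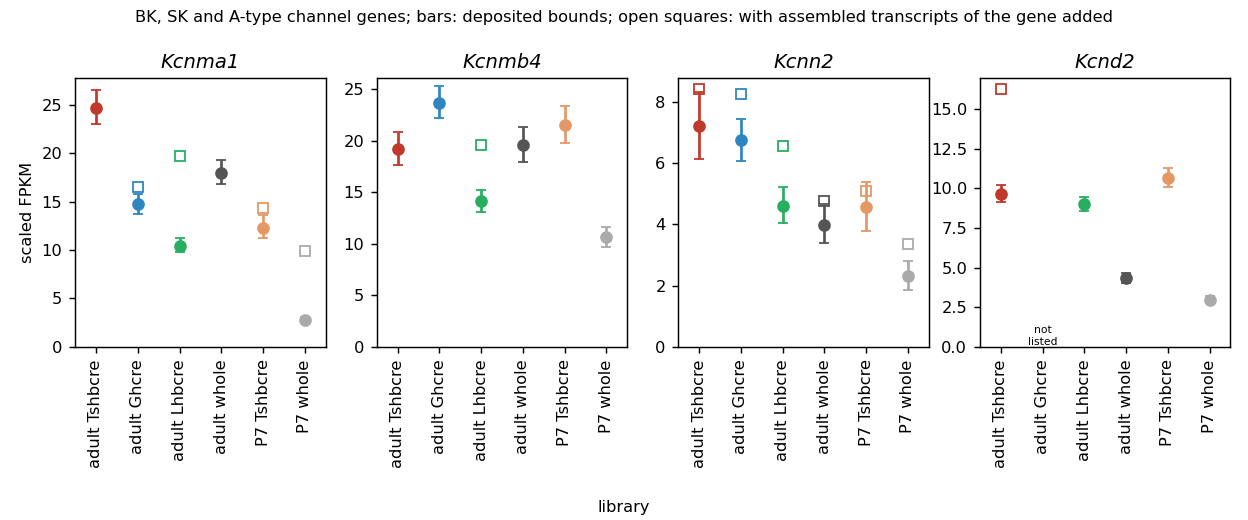
Scaled FPKM of Kcnma1, Kcnmb4, Kcnn2 and the transient Kv gene Kcnd2 in the 6 libraries, with the deposited bounds as bars and open squares for the level with assembled transcripts of the same Cufflinks gene added. The P7 whole gland is lowest for all 4 genes among the libraries listing them, and for Kcnma1 the square at 9.96 lies well above the point at 2.74.

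Kcnn2, which encodes a small-conductance SK channel gated by calcium through calmodulin, stood at 7.23 in adult Tshbcre, 6.75 in Ghcre, 4.61 in Lhbcre, 3.98 in the adult whole gland, 4.56 in P7 Tshbcre and 2.31 in the P7 whole gland. Adult Tshbcre and Ghcre were the higher libraries. Kcnn3, a second SK gene, was lower in each library, at 1.69, 0.49, 3.22, 0.38, 3.44 and 0.66 in the same order, and was 3.06-fold higher in Lhbcre than in the adult whole gland and 2.68-fold higher in P7 Tshbcre than in the P7 whole gland. With assembled transcripts added these became 1.46-fold higher and 1.34-fold lower. Kcnt1, a sodium-activated channel gene, stood at 3.03, 7.57, 3.97, 1.48 and 2.08 in adult Tshbcre, Lhbcre, adult whole gland, P7 Tshbcre and P7 whole gland and was listed at 0 in Ghcre. With assembled transcripts added, Ghcre stood at 4.73 and the adult whole gland at 7.32. Kcnmb2, an inactivating BK subunit, was listed at 0 in adult Tshbcre and stood at 2.47 to 4.11 in the other 5, and at 3.10 in adult Tshbcre with assembled transcripts added. Kcnn1 peaked at 1.78 in Lhbcre, and Kcnmb1, Kcnmb3, Kcnn4, Kcnt2 and Kcnu1 stayed under 1. With assembled transcripts added, Kcnn1 and Kcnu1 reached 2.68 and 2.46 in P7 Tshbcre, and Kcnmb1, Kcnmb3, Kcnn4 and Kcnt2 still stayed under 1.

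Among the 30 Kv pore genes, Kcnh2 was the most abundant in every library. It encodes the ERG channel, whose slow closing damps firing in pituitary cells and which thyrotropin-releasing hormone inhibits in lactotropes. Kcnh2 (chromosome 5, 24524583 to 24556671) stood at 16.6 in adult Tshbcre, 12.1 in Ghcre, 16.1 in Lhbcre, 22.9 in the adult whole gland, 12.8 in P7 Tshbcre and 14.2 in the P7 whole gland. The 6 values lie within 2-fold of each other on the scale used. Its relative Kcnh6 was listed at 0 in adult Tshbcre and stood at 7.77, 2.54, 4.51, 3.54 and 5.31 in Ghcre, Lhbcre, adult whole gland, P7 Tshbcre and P7 whole gland. It remained at 0 in adult Tshbcre with assembled transcripts added. Lhbcre then stood at 9.80 and was 1.96-fold above the adult whole gland. Kcnh8 stood at 10.9 in Ghcre and at 3.44 to 6.82 elsewhere. Assembled transcripts raised it to 18.9 in adult Tshbcre, 13.3 in Ghcre, 10.6 in Lhbcre, 11.5 in the adult whole gland, 13.1 in P7 Tshbcre and 7.99 in the P7 whole gland. Adult Tshbcre, 1.42-fold below the adult whole gland on annotated transcripts, was then 1.59-fold above it.

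Kcnd2 and Kcnd3 encode the pores of transient (A-type) channels. Kcnd2 (chromosome 6, 21212101 to 21729804) stood at 9.68 in adult Tshbcre (9.13 and 10.2), 9.01 in Lhbcre (8.55 and 9.46), 4.36 in the adult whole gland (4.04 and 4.67), 10.7 in P7 Tshbcre (10.1 and 11.3) and 2.99 in the P7 whole gland (2.78 and 3.20), and is not listed in Ghcre. The 3 sorted libraries lay close together and above both whole glands, by 1.99-fold and 1.87-fold in adult Tshbcre and Lhbcre and by 2.93-fold at P7. With assembled transcripts added, adult Tshbcre stood at 16.3 and was 3.22-fold above the adult whole gland. Kcnd3 stood between 2.46 and 5.60 in the 6 libraries, and at 9.32 in adult Tshbcre with assembled transcripts added. Partners of these pores differed too: Dpp6, which speeds Kv4 gating, stood at 18.1 and 13.6 in the Tshbcre libraries and at 4.67 to 7.46 in the other 4. Dpp10, a related partner, stood at 4.72, 0.20, 2.44 and 0.67 in adult Tshbcre, Ghcre, Lhbcre and whole gland and at 14.4 and 1.85 in P7 Tshbcre and whole gland. Kcnip3, a calcium-binding Kv4 partner also described as a transcriptional repressor, was highest in the whole glands, at 12.1 in the adult and 7.95 at P7, against 3.93 to 5.47 in the 4 sorted libraries. With assembled transcripts added, the adult whole gland was 1.58-fold above adult Tshbcre and within 1.11-fold of Lhbcre and Ghcre.

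Silent subunit genes were low. Kcng4, a silent subunit that gives no current alone and modifies other Kv pores, peaked at 4.95 in adult Tshbcre, against 0.74 in Lhbcre, 0.68 in the adult whole gland, 1.37 in P7 Tshbcre and 0.21 in the P7 whole gland. It was 3.54-fold higher in adult Tshbcre than in the adult whole gland. Kcnf1, another silent subunit gene, stood at 3.02 in Lhbcre and at 0.13 to 1.12 in the other 5 libraries. Kcng3 reached 1.02, and the other 7 silent subunit genes stayed under 1. Of these, Kcns3 reached 1.82 in Lhbcre with assembled transcripts added.

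Kcnc4, a fast Kv gene, stood at 8.12 in adult Tshbcre, 1.27 in Ghcre, 6.33 in Lhbcre, 3.64 in the adult whole gland, 2.47 in P7 Tshbcre and 1.22 in the P7 whole gland. Both P7 libraries were below their adult counterparts, by 2.63-fold in Tshbcre and 2.09-fold in the whole gland. Kcna5 stood at 2.41 in Lhbcre and 4.52 to 5.22 in the other 4 that list it. Kcna3 was listed at 0 in adult Tshbcre and in the P7 whole gland and stood at 3.13, 3.94, 4.64 and 1.14 in Ghcre, Lhbcre, adult whole gland and P7 Tshbcre. The libraries at 0 stood at 2.13 and 2.04 with assembled transcripts added. Kv pore genes that peaked between 1 and 5 included Kcna2, Kcna4, Kcna6, Kcnb2, Kcnc1, Kcnh1, Kcnh3, Kcnh5 and Kcnh7, beside Kcna3. With assembled transcripts added, Kcnb2 peaked at 9.95 in Lhbcre and Kcnh5 at 7.16 in P7 Tshbcre, and the others stayed under 5. The auxiliary genes Kcnab1, Kcnab2, Kcnab3 and Kcnip2 peaked at 1.22 to 3.45, and the 4 Kcne genes stayed under 1.

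Inward rectifier genes were modest. Kcnj3 and Kcnj6 encode GIRK channels, which open downstream of Gi-coupled receptors such as those for dopamine and somatostatin. Kcnj3 stood at 3.43, 6.28, 3.11 and 7.21 in adult Tshbcre, Ghcre, Lhbcre and whole gland and at 0.69 and 2.49 in P7 Tshbcre and whole gland. It was 2.63-fold lower in P7 than in adult Tshbcre and 2.35-fold lower in the P7 than in the adult whole gland. Kcnj6 ran the other way with age: it stood at 2.35, 3.76, 4.60 and 2.61 in the 4 adult libraries and at 5.78 and 6.76 at P7, 2.02-fold higher in Tshbcre and 2.15-fold higher in the whole gland. With assembled transcripts added these folds were 2.05 and 1.49. The annotated transcript that held Kcnj6 also differed with age. In adult Tshbcre and the adult whole gland 100% of the level sat on a transcript of 18878 nt. In P7 Tshbcre 100% sat on one of 3086 nt, and in the P7 whole gland the top one, of 2356 nt, held 43.2%. FPKM is per kilobase of transcript, and the part of transcript length in these folds was not tested. Of the receptors upstream, Drd2, the dopamine receptor gene of lactotropes, stood at 3.12 in adult Tshbcre, 7.08 in Lhbcre, 23.8 in the adult whole gland, 0.48 in P7 Tshbcre and 5.52 in the P7 whole gland. Kcnj11, the pore of ATP-sensitive channels, stood between 1.88 and 2.89 in the 5 libraries that list it. Kcnj8, the vascular counterpart, was listed at 0 in adult Tshbcre and stood at 0.95 in Lhbcre, 1.35 in the adult whole gland, 0.02 in P7 Tshbcre and 0.85 in the P7 whole gland. Its partner gene Abcc9 stood at 0.34, 0.42, 1.59, 0.15 and 2.22 in these 5 libraries, and the pericyte marker Rgs5 at 3.11, 1.77, 21.6, 0.68 and 13.3. All 3 were higher in each whole gland than in the Tshbcre library of that age.

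The comparisons were then counted over all members. In adult Tshbcre against the adult whole gland, 3 of 40 members at 1 or more were apart, against 7.06% of all genes so measured: Kcnk3 was higher, and Kcna3 and Kcnh6 were lower and listed at 0 in the sorted library. Over genes above 0 in both libraries it was 1 of 35 members against 1.44% of all genes. At 2-fold, 7 of these 35 were apart (11.6% of all genes): Kcna4, Kcng4, Kcnk3 and Kcnk9 were higher and Kcna2, Kcnip3 and Kcnk10 lower. The median log2 difference was -0.22 over the 40 members and -0.02 over all genes.

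In Ghcre against the adult whole gland, 1 of 29 members was apart (9.8% of all genes), Kcnt1, listed at 0 in Ghcre. None of the 26 above 0 in both was apart (2.79%). At 2-fold, 5 of them were apart (18%), among them Kcnh7, which was higher, and Kcnab1, Kcnc4 and Kcnip3, which were lower. With assembled transcripts added, Kcnh7 was 1.46-fold higher and Kcnab1 and Kcnc4 were 1.22-fold and 1.73-fold lower. On annotated transcripts the median was -0.27 over members and 0.00 over all genes. Under a scaling that equalizes the summed FPKM of annotated genes it was 0.99 against 1.09. In Lhbcre against the adult whole gland, 1 of 45 members was apart (9.31%), Kcnk3. Kcnk3 was also the 1 member apart among the 44 above 0 in both (2.43%). At 2-fold, 7 of these 44 were apart (18.1%), among them Kcnf1, Kcnk3 and Kcnn3, which were higher, and Kcnab1, Kcnip3 and Kcnk10, which were lower. With assembled transcripts added, Kcnf1 and Kcnk10 kept folds of 3.55 and 2.49, and Kcnab1 was 1.31-fold lower. On annotated transcripts the median was -0.12 against 0.00. These 3 comparisons share the adult whole gland, as does that of the whole glands at both ages.

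At P7, 1 of 39 members was apart between Tshbcre and the whole gland (9.38% of all genes), Kcnk9. It was also the 1 member apart among the 38 above 0 in both (3.16%). At 2-fold, 10 of these 38 were apart (17.9%), among them Kcnd2, Kcnh5, Kcnk3, Kcnk9, Kcnma1 and Kcnn3, which were higher, and Kcnh1, Kcnj3 and Kcnk1, which were lower. The median was 0.30 over members and -0.01 over all genes. In the sorted library 24 of 39 members were higher, against 49.5% of all genes. Scaling moved both medians together, so that the members lay 0.29 above all genes with FPKM as deposited and with equal sums. With no filter on low values they lay 0.02 above, with 44 of 86 members higher, against 48.2% of all genes. The adult and P7 comparisons of Tshbcre with the whole gland share no library. Among the 38 members above 0 in all 4 libraries and at 1 or more in at least 1 comparison, 16 were higher and 13 lower in the sorted library at both ages. This count was not made over all genes, so it does not show whether members agree more often than other genes.

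**Figure D4:**
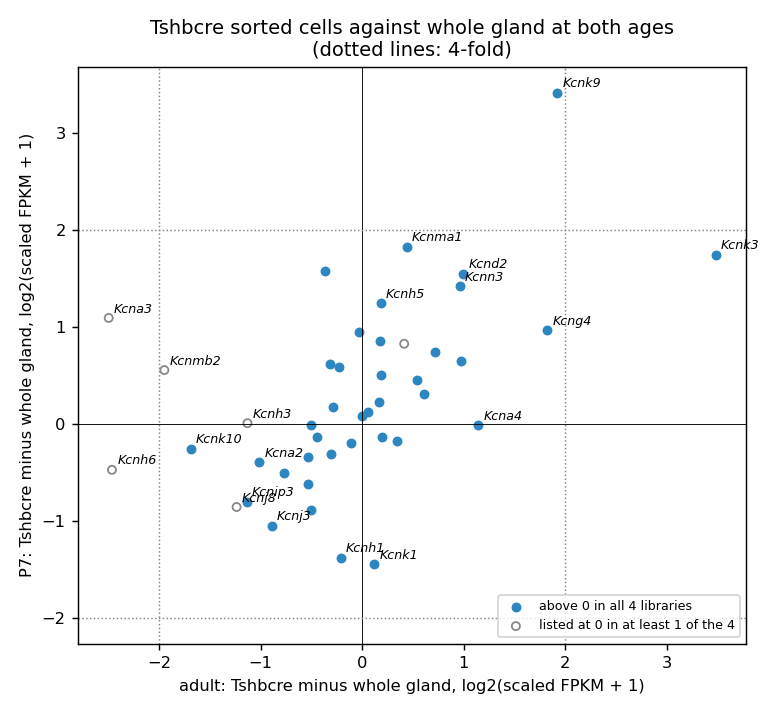
Difference between Tshbcre sorted cells and the whole gland in log2(scaled FPKM + 1), in adults on the horizontal axis and at P7 on the vertical axis, for 44 potassium channel genes. Filled points are the 38 above 0 in all 4 libraries, open points the 6 listed at 0 in at least 1, and dotted lines mark 4-fold; Kcnk3 and Kcnk9 lie at the upper right.

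Whole glands of both ages were compared last. In the P7 whole gland 2 of 38 members were apart from the adult whole gland (6.59% of all genes), Kcna3 and Kcnma1, both lower at P7, and neither was apart with assembled transcripts added. More members were lower than higher at P7: 29 of 38 were lower, against 48.9% of all genes, and the median was -0.50 against 0.02. Relative to the median of all genes the members lay at -0.52, at -0.50 with FPKM as deposited, at -0.55 with equal sums, at -0.35 with assembled transcripts added and at -0.04 with no filter on low values, where 55 of 88 members and 51.4% of all genes were lower. With FPKM as deposited 24 of 43 were lower, against 31.8% of all genes. By role, 12 of 16 Kv pore genes, 5 of 6 two-pore genes, 5 of 5 calcium- and sodium-activated genes, 3 of 4 auxiliary genes and 4 of 7 inward rectifiers were lower. Of the 37 above 0 in both, 1 was 4-fold apart (1.14%), Kcnma1. At 2-fold it was 9 of 37 (11.2%), among them Kcna2, Kcnc4, Kcnj3, Kcnk10 and Kcnma1, which were lower, and Kcnj4, Kcnj6 and Kcnk3, which were higher. Kcnk3 was 1.39-fold higher with assembled transcripts added. Mesenchymal and pericyte markers stood at 194 in the P7 gland against 59.1 in the adult gland, and Xist at 17.0 against 0.06. Their part in these differences was not tested.

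**Figure D5:**
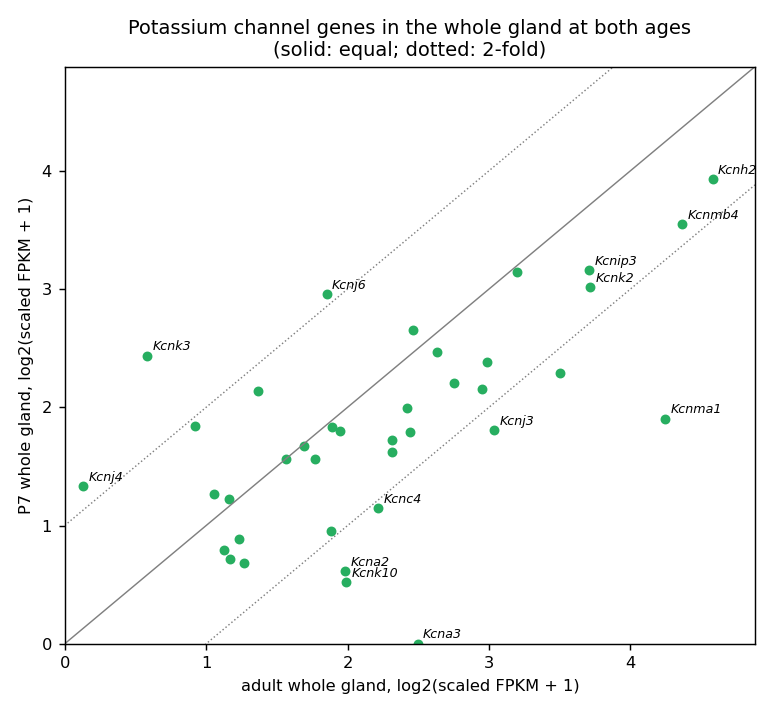
Level of potassium channel genes in the adult whole gland (horizontal axis) and the P7 whole gland (vertical axis), both as log2(scaled FPKM + 1), for the 38 members that reach 1 scaled FPKM in either. The solid line marks equal levels and the dotted lines 2-fold; 29 of the 38 points lie under the solid line.

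Between P7 and adult Tshbcre, 2 of 38 members were apart (8.21% of all genes), Kcnh6 and Kcnmb2, both listed at 0 in the adult library. None of the 35 above 0 in both was 4-fold apart (1.31%). At 2-fold, 7 of 35 were apart (13.1%): Kcnh5 and Kcnj6 were higher at P7, and Kcna4, Kcnc4, Kcng4, Kcnj3 and Kcnk1 lower. The median was 0.07 against 0.02, with 21 members higher and 17 lower, where 51.5% of all genes were higher. These libraries also differed in Xist, at 62.6 at P7 and 0.11 in the adult.

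Genes outside the family that bind or steer these channels were counted by the same rule. Of the 19 listed (sulfonylurea receptors, Kv partners, BK gamma subunits, calmodulins, somatostatin and dopamine receptors, Kcnrg and the antisense RNA Kcnq1ot1), 14 were compared between adult Tshbcre and the adult whole gland, and Drd2 was 4-fold lower. In that comparison 7.06% of all genes were apart. Drd2 stood at 7.25 against 23.8 with assembled transcripts added. At P7, Dpp10 was 4-fold higher and Drd2 4-fold lower among 15 compared, where 9.38% of all genes were apart. In the other 4 comparisons none of 8 to 15 was 4-fold apart, against 6.59% to 9.8% of all genes. The calmodulin gene Calm2 stood at 51.7 to 86.2 in the 6 libraries with assembled transcripts added, and the BK gamma subunit gene Lrrc26 was listed at 0 in all 6.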

How the data were processed

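Cufflinks isoform tables were used, 1 for each library. The submitters' processing notes list FastQC, Bowtie2, Cufflinks and mm39 with no versions; settings, strand use and read numbers were not given in the sources used here. Per the file headers, each line gives a transcript's FPKM as computed by the authors, its bounds and a deposited coverage signal. Coverage was a fixed multiple of FPKM in every file and served as relative depth (2.68 to 7.32).

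FPKM of annotated transcripts were added up by gene name and divided by median-of-ratios factors, taken over 5808 genes that reach 1 FPKM in each library. The factors were 1.00 (Tshbcre), 0.758 (Ghcre), 0.967 (Lhbcre) and 1.10 (whole gland) in adults, and 0.976 (Tshbcre) and 1.42 (whole gland) at P7. The pseudocount was 1. Groups came from the labels. With 1 library per group no test was possible. Values are given in full for members that reach 5 scaled FPKM, or are 4-fold apart with both libraries above 0; some items are not reported here, and other members named with values were picked after their values were seen. Members and gene lists were chosen with earlier results of these data known. Alternatives were other scalings, a pseudocount of 0.1, no filter, only genes above 0, and unnamed transcripts of 200 nt or more added by span or, chosen after the data were seen, by Cufflinks gene. Transcripts added by span lay inside the span of 1 gene and overlapped no other. Of the unnamed transcripts, 4.25% (Lhbcre) to 65.8% (adult whole gland) reached 200 nt. The counting was tested on simulated data. Other genes overlap the spans of 42 members, and shared reads cannot be told apart. Gene coordinates follow the mm39 files (1-based), and promoters are from RefSeq on GRCm38.p6. Python 3.11.15, numpy 2.4.6, pandas 2.3.3 and matplotlib 3.10.9 were used.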

Additional observations from a re-analysis of the deposited data

How the results depend on the processing

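The counts of members 4-fold apart are small, and assigning reads to assembled transcripts changes several of them. In the order adult Tshbcre, Ghcre, Lhbcre (each against the adult whole gland), P7 Tshbcre against P7 whole gland, P7 against adult whole gland and P7 against adult Tshbcre, they were 3, 1, 1, 1, 2 and 2. With a pseudocount of 0.1 they were 9, 6, 7, 6, 6 and 4. With unnamed transcripts inside the span added they were 10, 17, 15, 20, 12 and 17, of 53, 50, 54, 51, 50 and 53 members compared. The log2 difference of Kcnt1 in Ghcre then reversed, to 0.41, and the cause was not tested. With transcripts of the same Cufflinks gene added, an alternative chosen after the data were seen, Ghcre, Lhbcre and the P7 whole gland had 0 and P7 Tshbcre against its whole gland had 2. Over genes above 0 in both libraries, adult Tshbcre and the P7 whole gland had 1, and Ghcre and P7 against adult Tshbcre had 0. With equal sums, P7 Tshbcre against its whole gland had 3. FPKM as deposited and no filter kept each count within 1.5 times. Counts over all genes rose as well. In the order above they were 1115, 1106, 1531, 1535, 1034 and 1316 in the main setting. With a pseudocount of 0.1 they were 2375, 2361, 3429, 3454, 2099 and 2910. With unnamed transcripts inside the span they were 2393, 3561, 4756, 4247, 2300 and 3685. Kcnk9 at P7 stayed 4-fold higher under every alternative run, with log2 differences of 2.96 to 3.70 under the other scalings. No paired analysis was possible because each group is 1 library. The number of libraries limits all values.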
